A study of Mus musculus with 21 samples.

Results

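The clustered replication-dependent histone genes are the many near-identical copies from which cells make the linker histone H1 and the core histones H2A, H2B, H3 and H4. Members were taken by gene name, as every name of the old Hist1 to Hist4 style or of the newer H1f, H2ac, H2bc, H3c and H4c numbering. This gave 67 of the 55291 gene names measured in ESCs treated with lactate and 65 of the 21161 names measured across cell states. By class there were 6 H1, 20 H2A, 17 H2B, 12 H3 and 12 H4 genes. In the GRCm38 annotation (GENCODE M21) 66 of the names were found, 56 of them on chromosome 13 and 10 on chromosome 3, and H2ac5-ps was left unmatched. GENCODE or RefSeq marked 3 members as pseudogenes (H2ac14, H2ac5-ps and, in GENCODE alone, the processed pseudogene Hist1h2al, which lies apart from the cluster). The names missing from the cell-state table were H1f6 and H2bc18. Each entry of that table reached 0.5 FPKM or more in some library, whereas the lactate table also listed entries at 0 throughout.

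The study measured RNA by sequencing in mouse cells labelled as the OG2 line, in groups of 3 libraries. The cell-state table held 2-cell-like cells (2CLCs), epiblast stem cells (EpiSCs), mouse embryonic fibroblasts (MEFs) and embryonic stem cells (ESCs), all labelled WT. The lactate table held ESCs given 0 mM, 60 mM or 80 mM sodium lactate, with the untreated ones labelled WT. The 2CLCs are rare cells of ESC cultures that switch on genes of the 2-cell embryo, and the sources used here do not give how they were obtained. Values are FPKM, that is, fragments scaled to transcript length and to the library's total. Levels of different genes thus depend on the annotated lengths that were used, which are not stated, and are set side by side with that limit.

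As background, most of these genes have no introns and their mRNA is not polyadenylated. It ends instead just after a short stem-loop that is bound by SLBP, the stem-loop binding protein, and is cut by a complex that contains the U7 snRNP. Their transcription is tied to DNA synthesis in S phase through NPAT at the histone locus body. Some members also yield longer, polyadenylated transcripts, mainly in cells that have left the cell cycle. Replacement histones such as H3.3 and H2A.Z come from separate, polyadenylated genes that are expressed through the whole cell cycle. A protocol that selects poly(A) RNA captures little of the stem-loop form, and the labels name a Trizol extraction of total RNA and an Illumina TruSeq RNA kit without stating the selection.

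The stem-loop was found by its letters in the annotated transcripts of 32 members, and the forms below are shown because they mark the stem-loop mRNA described above. It was not found in those of H4c9, H4c12 and H2ac12, among the highest members in 2CLCs. Their longest annotated transcripts have 727, 312 and 405 bases, and an annotation that ends before the mRNA does would hide a stem-loop. These genes are thus not shown to lack it. FPKM per gene does not tell the stem-loop form from longer transcripts. The sequences are DNA letters of GRCm38 transcripts, 5′ to 3′, with the stem and loop in capitals and 5 bases on each side.
H1f2: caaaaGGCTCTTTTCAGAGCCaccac
H2ac4: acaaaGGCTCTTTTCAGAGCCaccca
H2bc8: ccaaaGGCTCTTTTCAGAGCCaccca
H3c15: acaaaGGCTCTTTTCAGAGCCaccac
H4c8: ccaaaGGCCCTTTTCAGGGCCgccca
H4c2: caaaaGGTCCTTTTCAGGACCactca
One form, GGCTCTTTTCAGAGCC, was present in 24 members (3 H1, 9 H2A, 7 H2B and 5 H3 genes). Among H4 genes, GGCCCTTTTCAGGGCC was found in 6 and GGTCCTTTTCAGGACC in 2. Only these exact forms were searched, all with the same loop, so any other stem or loop would have been missed. Where the stem-loop was found, the annotated transcript ended 11 bases past it in H2ac4 and 28 bases past it in H4c2. It ran on for 840 bases in H1f2 and for 2010 bases in H2ac6, and a polyadenylation signal was found past the loop in 8 members (H1f2, H1f3, H2ac6, H2ac8, H2bc6, H2bc9, H3c14 and H4c11). Members whose longest annotated transcript has 1000 bases or more (16) are called long here, and the 50 others that matched are called short.

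RefSeq promoters (GRCm38.p6) were matched for 51 members. A promoter of a leading member of 4 classes is shown, because the classes moved together in 2CLCs and differ in what lies before the start. The 150 bases before the start are given on the strand of the gene, and the capitals mark, in either orientation, the letters CCAAT that NF-Y binds, the TATA box letters TATAAA and the octamer ATTTGCAT.
H1f2, chr13:23738657-23738806, plus strand: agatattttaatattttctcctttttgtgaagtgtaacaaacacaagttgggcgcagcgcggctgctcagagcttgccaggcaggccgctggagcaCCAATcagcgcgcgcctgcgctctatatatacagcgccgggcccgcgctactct
H2bc12, chr13:22035671-22035820, plus strand: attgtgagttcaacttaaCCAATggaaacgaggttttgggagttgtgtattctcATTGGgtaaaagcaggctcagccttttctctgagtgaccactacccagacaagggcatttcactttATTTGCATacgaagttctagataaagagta
H3c8, chr13:23535268-23535417, plus strand: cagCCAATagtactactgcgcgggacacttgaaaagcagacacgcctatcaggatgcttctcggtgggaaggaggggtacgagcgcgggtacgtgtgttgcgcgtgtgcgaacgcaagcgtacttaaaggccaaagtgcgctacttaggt
H4c9, chr13:22041363-22041512, minus strand: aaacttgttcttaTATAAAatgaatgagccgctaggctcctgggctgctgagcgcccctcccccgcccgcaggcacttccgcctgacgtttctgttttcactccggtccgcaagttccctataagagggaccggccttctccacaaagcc
The H2bc12 window lies between that gene and H2ac12, which is read in the opposite direction from a start 302 bases away. Over the 250 bases before the start and on both strands, CCAAT was found in 43 of 51 members (84.3%) and in 34.4% of the 26974 other promoters. It was found before all 6 H1, all 14 H2A and all 12 H2B genes, before 8 of 10 H3 genes and before 3 of 9 H4 genes. TATAAA was found before 24 members (47.1%) and in 12.9% of the others. The octamer ATTTGCAT, known as a site for OCT1 (Pou2f1) in H2B promoters, was found before 12 members (23.5%), 6 of them H2A and 6 H2B genes, and in 1.57% of the others. Divergent H2A and H2B pairs start 176 to 306 bases apart, so their searched stretches can overlap and 1 site can count for both genes. The H2A and H2B counts are therefore not of separate promoters throughout. Motifs were searched independently, so an overlap counts for each, and a match is a description of letters only.

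Library sums were between 375926 and 519915 FPKM across cell states and between 396792 and 409131 FPKM in the lactate table, and no read counts were used, so depth is unknown. The labels were checked against marker genes: 6 of 6 2CLC markers were higher in 2CLCs than in ESCs (Zscan4c averaged 5907 FPKM in 2CLCs and 2.34 FPKM in ESCs). All 4 EpiSC markers were higher in EpiSCs (Otx2, 93.2 against 1.18 FPKM in ESCs), and 6 of 6 MEF markers were higher in MEFs (Col1a1, 310 against 0.209 FPKM in ESCs). Markers of other cell types also moved: in 2CLCs 3 of 6 MEF markers, and in EpiSCs 4 of 6, were higher than in ESCs. Because members are copies of each other, 32 of the 66 matched ones share at least 50% of their 50-base windows with another member (median 49.6%), and only 5 share none. How reads were split among copies is therefore uncertain for single members, and less so for class sums.

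Summed over all members, the histone genes made up 2030, 2214 and 2021 FPKM in the 2CLC libraries, 38.9, 53.9 and 55.4 FPKM in EpiSCs, 196, 184 and 191 FPKM in MEFs, and 80.5, 78.3 and 78.7 FPKM in ESCs. The 2CLC libraries were far above all others and the EpiSC libraries were the lowest, with no overlap between any of the groups. The ratio of mean sums to ESCs was 26.4 for 2CLCs, 2.4 for MEFs and 0.624 for EpiSCs. In bulk RNA, fewer cells of a type and less RNA per cell cannot be told apart. With H4c9, the highest member, left out, the sums were 1810 FPKM in 2CLCs and 72.5 FPKM in ESCs.

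Classes moved unequally. The sum in 2CLCs over that in ESCs was 46.6 for H4, 34.7 for H3, 26.7 for H2A, 16.1 for H2B and 5.08 for H1. In 2CLCs the class means were 684 ± 73.5 FPKM for H4 and 46.2 ± 2.55 FPKM for H1, against 14.7 ± 1.82 FPKM for H4 and 9.09 ± 0.366 FPKM for H1 in ESCs (SD, n = 3 each). H4 made up 32.7% of the summed histone FPKM in 2CLCs and 18.5% in ESCs, and H1 made up 2.22% in 2CLCs and 11.5% in ESCs. The leading class was H2B in both MEFs and ESCs, with 39.3% of the sum in MEFs and 27.2% in ESCs, where H2A was close (25.9%). The differences between classes are described here and were not tested.

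**Figure D1:**
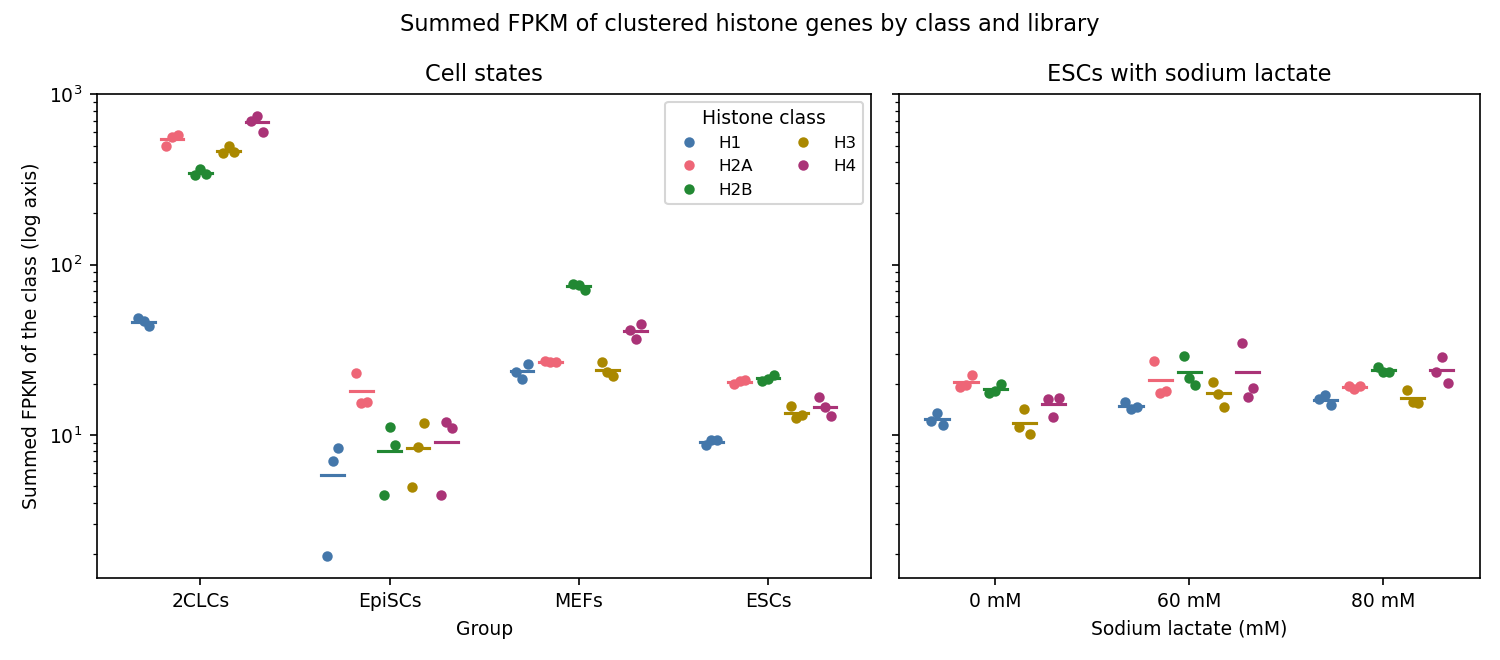
Summed FPKM of each histone class per library on a log axis, for the 4 cell states (left) and for ESCs at 3 doses of sodium lactate (right); points are libraries and short lines are group means. All 5 classes sit highest in 2CLCs (345 to 684 FPKM for the core classes and 46.2 FPKM for H1), and the EpiSC libraries spread most.

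Per member, 45 of 65 averaged 10 FPKM or more in 2CLCs, against 0 in EpiSCs, 4 in MEFs and 1 (H2bc4) in ESCs. The median member averaged 22.4 FPKM in 2CLCs, 0.48 FPKM in EpiSCs, 0.981 FPKM in MEFs and 0.689 FPKM in ESCs. The group with the highest mean was 2CLCs for 63 members and MEFs for 2 (H2ac19 and H2ac21). For H2ac19 that rested on 1 MEF library (2.18, 0.0247 and 0.0373 FPKM). MEFs came next after 2CLCs for 37 members, ESCs for 17 and EpiSCs for 8. The leading copies differed by state: H4c9, H4c12, H2ac12, Hist1h4n and H3c8 held 32.3% of the sum in 2CLCs. In MEFs, H2bc4, H1f2, H4c9, H2bc8 and Hist1h4n held 50.7%, and in ESCs H2bc4, H1f2, H4c9, H2ac10 and H3c8 held 40.8%.

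**Figure D2:**
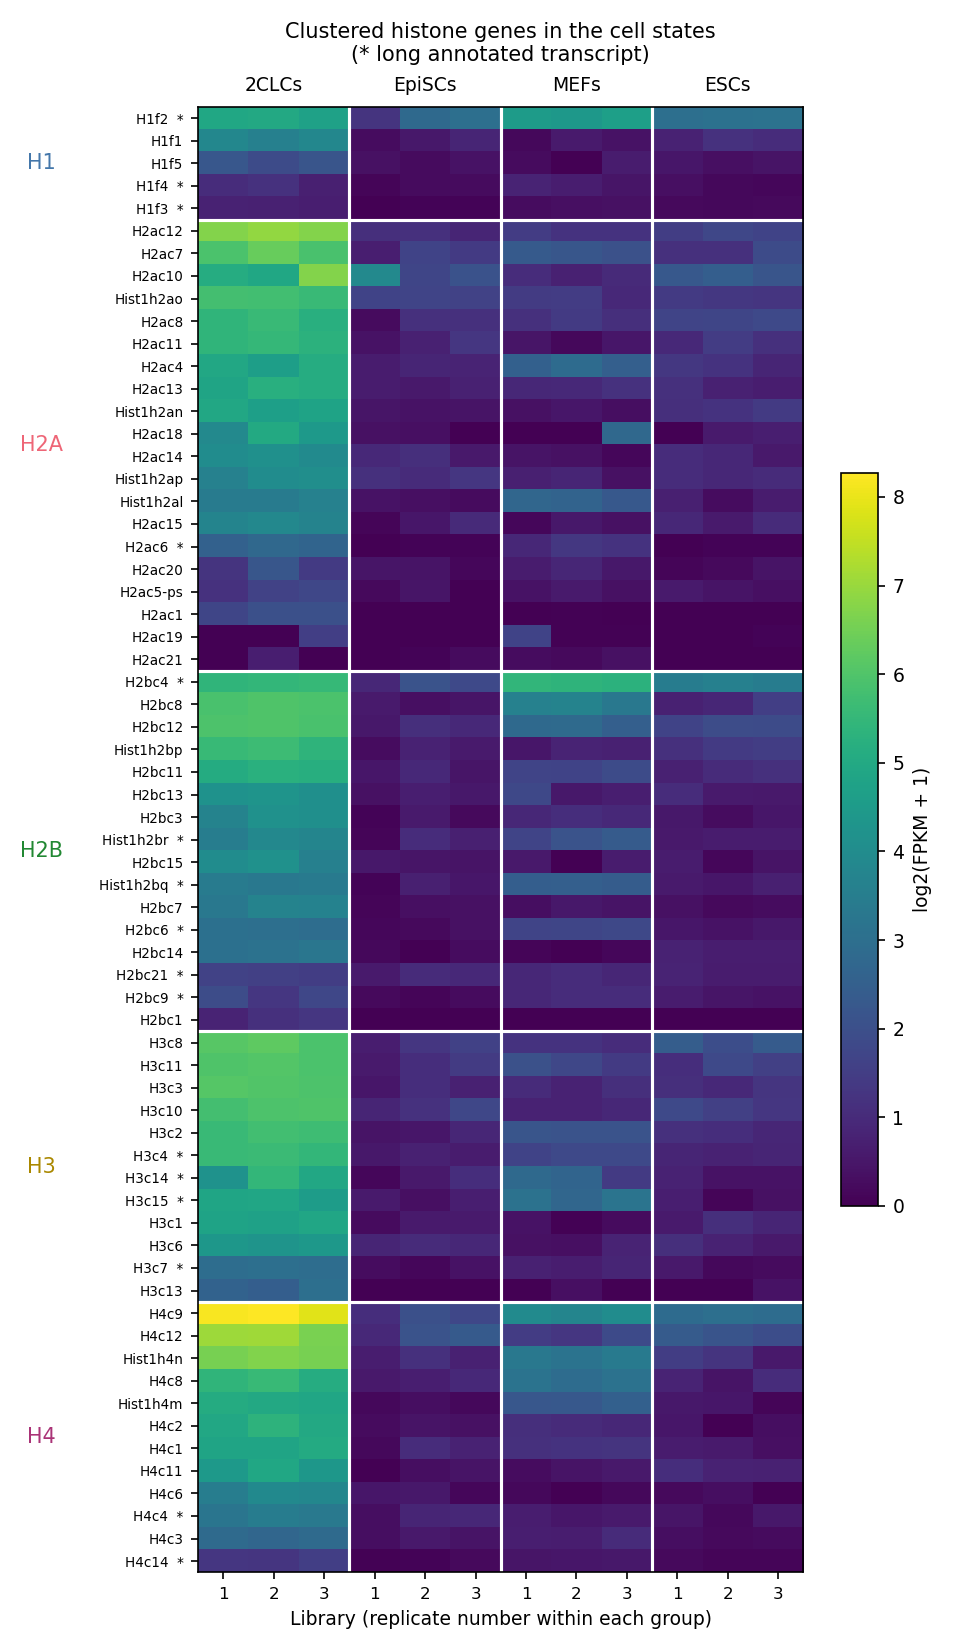
Heat map of log2(FPKM + 1) for the 65 histone genes of the cell-state table, one row per gene ordered by class and mean level, and one column per library. The 3 columns of 2CLCs are bright in nearly every row, and an asterisk marks a long annotated transcript. In MEFs the rows with an asterisk range from H2bc4 and H1f2, the brightest (means of 40.5 and 22.2 FPKM), to H1f3 (0.264 FPKM).

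In 2CLCs nearly every clustered histone gene was higher than in ESCs, whatever its class. With no filter beyond the 0.5 FPKM that each entry reached in some library, the groups were first compared by overlap. All 3 libraries of 2CLCs lay above all 3 of ESCs for 63 of 65 members and below for 0. Over all genes, which share that floor, 22.7% lay above and 51.7% below. H1f3, H2ac1, H2ac21, H2bc1, H2bc7, H3c13, H4c6 and H4c14 reached 0.5 FPKM only in 2CLCs. For these members the count could hardly lean the other way. Called by limma at an adjusted p under 0.05 without the filter, 63 of 65 members rose and 0 fell (21.2% and 47% of all genes). The count at an unadjusted p under 0.05 was also 0 for falls among the 60 members that passed the filter. Those 60 all rose with the filter (background 20.2% higher, 56.4% lower), but only 33 members pass it without the 2CLC libraries, so that count had to lean one way. Without the filter, the median log2 fold change was 3.54 over the members and -0.25 over all genes.

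The exceptions were H2ac19 and H2ac21, low H2A genes of the chromosome 3 cluster. H2ac19 was at 0, 0 and 1.92 FPKM in 2CLCs, against 0, 0 and 0.0542 FPKM in ESCs. H2ac21 was at 0, 0.636 and 0 FPKM in 2CLCs and was listed at 0 in all ESC libraries.

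Among H4 genes, whose copies encode the same core histone, H4c9 (chr13:22040636-22041362, minus strand) was the highest member of all. H4c9 was at 291, 307 and 238 FPKM in 2CLCs, against 6.35, 7.04 and 6.54 FPKM in ESCs, a log2 fold change of 5.19 with an SE of 0.20 (limma, adjusted p = 7.32e-10). Its lowest 2CLC library thus exceeded its highest ESC library by a wide margin. Hist1h4n had the largest rise on the log2(FPKM + 1) scale among members above 5 FPKM, a scale that understates the change of genes low in ESCs, with 94.2, 102 and 94.1 FPKM in 2CLCs, against 1.81, 1.36 and 0.484 FPKM in ESCs (log2 5.51, SE 0.21, adjusted p = 6.05e-10). H4c12 had 132, 136 and 96.5 FPKM in 2CLCs, against 4.16, 3.45 and 2.85 FPKM in ESCs (log2 4.76). H4c2, whose annotated transcript ends 28 bases past the stem-loop printed above, had 30, 39.9 and 30.7 FPKM in 2CLCs, against 0.417, 0 and 0.246 FPKM in ESCs (log2 4.82). The smallest H4 rise was that of H4c14, a long member, with a mean of 1.59 FPKM in 2CLCs and 0.102 FPKM in ESCs (log2 1.23).

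All 12 H3 genes were higher in 2CLCs, with a median log2 fold change of 4.36. H3c8 was at 69.3, 72.9 and 59.5 FPKM in 2CLCs, against 4.38, 2.85 and 4.2 FPKM in ESCs (log2 3.84). H3c3 was at 66.5, 64.4 and 61.8 FPKM in 2CLCs, against 1.16, 0.918 and 1.43 FPKM in ESCs (log2 4.92, SE 0.15, limma adjusted p = 9.12e-11). Both had 2CLC libraries close to each other and well apart from ESCs. H3c11 had 62, 66 and 59.9 FPKM in 2CLCs, against 1.1, 2.57 and 1.96 FPKM in ESCs (log2 4.50).

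H2A and H2B genes sit mostly in divergent pairs that share the stretch between their starts. H2ac12 was at 106, 121 and 106 FPKM in 2CLCs, against 1.85, 2.4 and 2.14 FPKM in ESCs (log2 5.16, SE 0.11, limma adjusted p = 4e-12). Its partner H2bc12 averaged 61 FPKM in 2CLCs and 2.58 FPKM in ESCs (log2 4.12). Both members of the pair rose. H2ac7 averaged 66.3 FPKM in 2CLCs and 1.72 FPKM in ESCs (log2 4.66). H2ac10 stood out for its spread, with 33.5, 29.5 and 106 FPKM in 2CLCs, against 3.83, 4.52 and 3.49 FPKM in ESCs (log2 3.29). Only replicate 3 of the 2CLCs was that high.

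H2bc8 was at 58.1, 61.9 and 60.1 FPKM in 2CLCs, against 0.681, 0.857 and 1.92 FPKM in ESCs (log2 4.87). H2bc4, a long member, was the highest histone gene in ESCs and rose less, with 41.4, 43.5 and 45.9 FPKM in 2CLCs, against 10.1, 11.2 and 10.2 FPKM in ESCs (log2 1.96, SE 0.23, limma adjusted p = 1.1e-05). H2bc21 had the smallest rise of its class, with 1.97 FPKM in 2CLCs and 0.623 FPKM in ESCs (log2 0.87). Among the 13 divergent pairs within 1000 bases, the H2A gene was the higher of the pair in 9 in 2CLCs and in 3 in MEFs. H2ac12 and H2bc12 averaged 111 and 61 FPKM in 2CLCs, but 1.46 and 5.67 FPKM in MEFs. H2ac8 and H2bc8 averaged 41.8 and 60 FPKM in 2CLCs, and 1.33 and 10.7 FPKM in MEFs.

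As a class H1 rose least, in its sum and in the median log2 fold change of its genes. Gene by gene this did not hold, as H2bc21 and H4c14 rose less than H1f1. H1f2, the most abundant linker histone gene here, was at 29.7, 30.9 and 25.5 FPKM in 2CLCs, against 7.08, 7.51 and 7.62 FPKM in ESCs (log2 1.82, SE 0.36, limma adjusted p = 0.000642). H1f1 was at 13.2, 11.2 and 13.1 FPKM in 2CLCs, against 0.742, 1.28 and 1.06 FPKM in ESCs (log2 2.74). H1f5 averaged 3.34 FPKM in 2CLCs and 0.346 FPKM in ESCs (log2 1.68). The 2CLC and ESC libraries did not overlap for any of these. H1f3 and H1f4 were too low for the test, at 0.677 and 0.998 FPKM in 2CLCs and 0.145 and 0.17 FPKM in ESCs.

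The germline members were seen in 2CLCs at low levels. H2ac1 and H2bc1, a divergent pair that encodes the testis histones TH2A and TH2B, also present in oocytes, start 306 bases apart. H2ac1 was at 2.3, 3.01 and 3.02 FPKM in 2CLCs and was listed at 0 in every ESC and EpiSC library. H2bc1 was at 0.763, 1.19 and 1.5 FPKM in 2CLCs and was listed at 0 in every other library of the cell states. No fold is given against libraries at 0. H1f6, the testis linker histone H1t, was measured only in the lactate table, where no library exceeded 0.103 FPKM, and H2bc18 was listed at 0 there throughout.

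**Figure D3:**
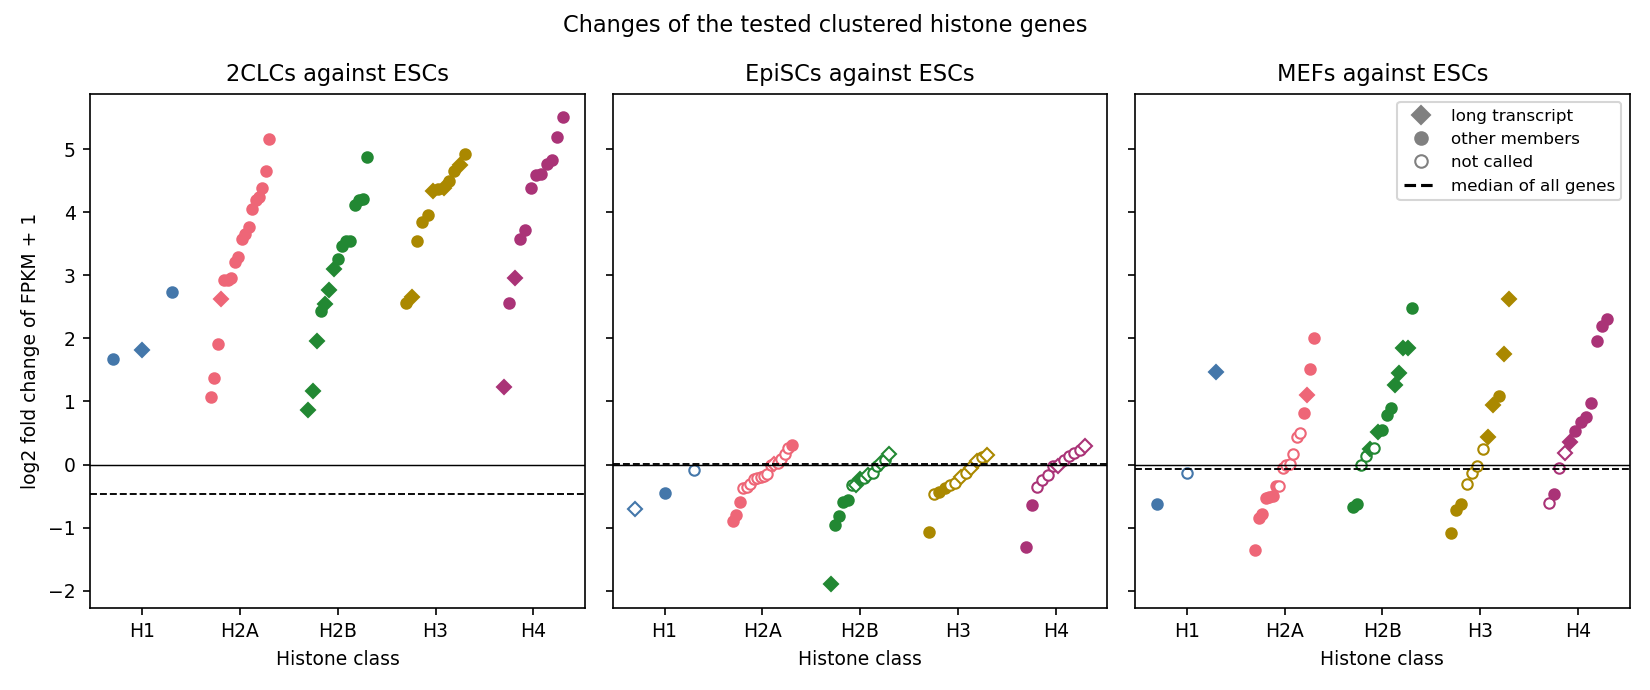
Log2 fold changes of the tested histone genes by class, for 2CLCs, EpiSCs and MEFs, each against ESCs; every symbol is 1 member, diamonds have a long annotated transcript, circles are the other members, open symbols were not called, and the dashed line is the median of all genes tested. In 2CLCs every symbol lies above 0, in EpiSCs most lie near or under 0, and in MEFs no filled diamond lies under 0.

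Structured RNAs that lack a poly(A) tail were higher in sum in the same libraries. The 13 with a name listed once (7SK, Y, RNase P and other small RNAs) summed to 119, 121 and 130 FPKM in 2CLCs. Their sums were 14.8, 30.7 and 23.1 FPKM in EpiSCs, 11.5, 10.4 and 9.48 FPKM in MEFs, and 10.8, 9.61 and 9.92 FPKM in ESCs. Rmrp, Terc, Rnu3a and Rnu3b1, listed more than once, were left out of these sums. The 2CLC libraries lay above all others for these RNAs too. With no filter beyond the 0.5 FPKM floor, 2CLC libraries lay wholly above ESC libraries for 9 of the 13, wholly below for 1 and overlapped for 3. Over all genes 22.7% lay above and 51.7% below. The median log2 fold change of the 13 was 0.76. With the filter 6 of 7 were called higher, but only 4 of the 7 pass it without the 2CLC libraries. Rn7sk, the RNA that holds the elongation factor P-TEFb inactive, was at 51.9, 44.9 and 68.4 FPKM in 2CLCs, against 3.24, 2.93 and 2.17 FPKM in ESCs (log2 3.88). Rny1, a small RNA bound by the Ro protein, was at 11.5, 12.3 and 14.6 FPKM in 2CLCs, against 0, 0 and 0.0695 FPKM in ESCs, and no fold is given for it. The part of poly(A) tails in the rise of the histone genes was not tested. With no filter beyond that floor, 2CLC libraries lay wholly above ESC libraries for 16 of 16 long and 46 of 48 short members. The median log2 fold change was 2.58 in long and 3.74 in short members.

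**Figure D4:**
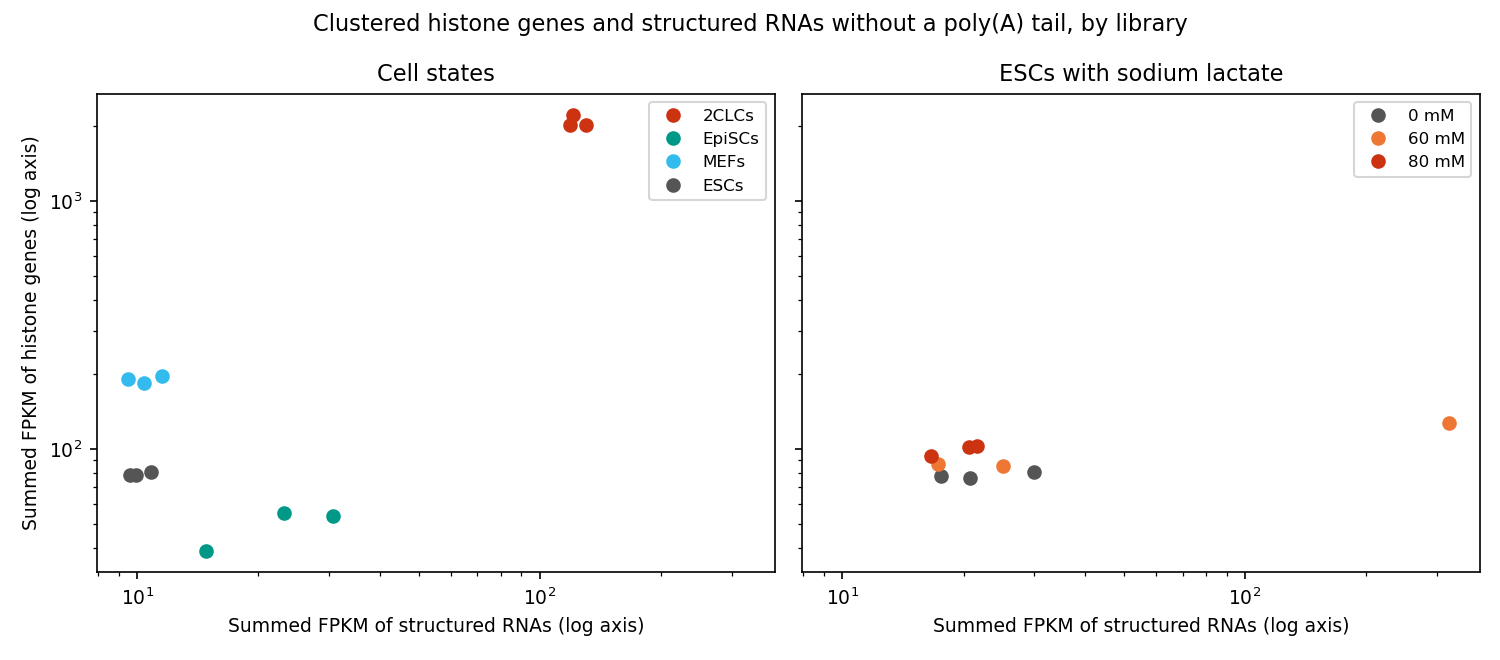
Summed FPKM of the histone genes against summed FPKM of structured RNAs without a poly(A) tail, on log axes, with 1 point per library, for cell states (left) and lactate (right). The 3 2CLC libraries lie at the top right, near 2021 to 2214 FPKM of histone genes and 119 to 130 FPKM of structured RNAs, and replicate 1 of 60 mM lies far to the right at 321 FPKM of structured RNAs.

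Genes around histone mRNA mostly fell in 2CLCs, and for several of them the direction depended on the scaling. Of 20 genes of the histone locus body and histone mRNA 3′ end, 2 rose and 17 fell (20.2% and 56.4% of all genes), against 6 and 11 with median-of-ratios scaling. Npat, the activator of histone transcription, averaged 5.45 FPKM in 2CLCs and 13.5 FPKM in ESCs (log2 -1.17). Slbp was at 77.6, 78.3 and 75.2 FPKM in 2CLCs, against 94.3, 95.2 and 91.8 FPKM in ESCs, which was not called (log2 -0.28, limma adjusted p = 0.096) and had the opposite sign, 0.48, with median-of-ratios scaling. Without EpiSC replicate 1 in the fit the fall of Slbp was called (adjusted p = 9.05e-05). Zfp473, which acts with the U7 snRNP, averaged 2.11 FPKM in 2CLCs and 12.1 FPKM in ESCs (log2 -2.09), and Casp8ap2, which is needed for the histone locus body, fell by 1.57 on the log2 scale. The U7 protein gene Lsm10 fell by 0.88. The 2 that rose were Cstf2t, a 3′ end cleavage factor (log2 1.14), and Nfya, a subunit of NF-Y (log2 0.66).

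Replacement histone genes were mixed in 2CLCs, with 3 of 12 higher and 6 lower, near the shares over all genes (20.2% and 56.4%), but 9 higher and 1 lower with median-of-ratios scaling. H2ax, the variant phosphorylated at DNA breaks, averaged 388 FPKM in 2CLCs and 223 FPKM in ESCs (log2 0.79). The linker variants H1f10 (25.2 FPKM in 2CLCs and 11 FPKM in ESCs, log2 1.13) and H1f0 (log2 0.38) also rose. H3f3b, which encodes H3.3, and H2az1, which encodes H2A.Z, fell by 0.46 and 0.36, but had the opposite sign with median-of-ratios scaling (0.30 and 0.41). H3f3a, the other H3.3 gene, was not called (log2 -0.21, and 0.56 with that scaling).

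Of 18 tested histone chaperone genes, 0 rose and 15 fell in 2CLCs (5 and 7 with median-of-ratios scaling). The shares over all genes, for these and for the S phase genes below, were 20.2% higher and 56.4% lower as deposited. Hira, the H3.3 chaperone, fell by 2.27 and Chaf1a, of the replication-coupled CAF-1 complex, by 1.26. Nasp, which stores soluble H3 and H4, fell by 0.65 but had a value of 0.12 with that scaling. Of 27 S phase genes, 2 rose (Lig1, log2 0.38, and Cdc45, log2 0.19) and 21 fell, against 11 and 10 with median-of-ratios scaling. The call of Cdc45 was lost without 2CLC replicate 3 (limma adjusted p = 0.0502) or ESC replicate 3 (0.0599). Ccne1, cyclin E1, averaged 27.3 FPKM in 2CLCs and 123 FPKM in ESCs (log2 -2.14). Pcna and Mcm5 fell by 0.24 and 0.55, with the opposite sign under that scaling (0.52 and 0.22). The scaling moved the median log2 fold change of all genes from -0.46 to 0.02 and that of the members from 3.58 to 4.20. Over all genes, the share of calls in 2CLCs that were higher was 26.3%, and it was 53.1% with that scaling. The counts of these lists under that scaling are to be read beside the second share.

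In EpiSCs, primed pluripotent cells of the later epiblast, 15 histone genes were called lower than in ESCs and 1 higher. Without the filter, EpiSC libraries lay wholly above ESC libraries for 1 of 65 members (32.7% of all genes) and wholly below for 18 (25.2%). Called by limma with the filter, 1 of 60 was higher (33.3%) and 15 were lower (26.5%), so the share of members that fell was near that of all genes, and 44 were not called. Without the filter limma called 0 higher (30.6%) and 14 lower (22.7%). By class the falls were 1 H1, 3 H2A, 6 H2B, 3 H3 and 2 H4 genes. With quantile normalization 26 members were lower, and 49% of the calls over all genes were higher, against 55.7% as deposited.

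H2bc4 fell most on the log2(FPKM + 1) scale, with 0.893, 3.33 and 2.58 FPKM in EpiSCs, against 10.1, 11.2 and 10.2 FPKM in ESCs (log2 -1.90, SE 0.23, limma adjusted p = 2.73e-05). H4c9 was at 1.11, 3.08 and 2.37 FPKM in EpiSCs, against 6.35, 7.04 and 6.54 FPKM in ESCs (log2 -1.31, adjusted p = 0.000154). Neither overlapped with ESCs. H3c8 was at 0.567, 1.45 and 2.06 FPKM in EpiSCs, against 4.38, 2.85 and 4.2 FPKM in ESCs (log2 -1.07, adjusted p = 0.00125). H2bc12 fell by 0.96, H2ac8 by 0.90, Hist1h2bp by 0.81, Hist1h2an by 0.80, H4c11 by 0.64, H2ac12 by 0.60, H2bc8 by 0.60 and H1f1 by 0.45 on the log2 scale. These falls came from all 5 classes. The call of H1f1 was lost without ESC replicate 2 or 3 or EpiSC replicate 1 or 2, and that of H2bc8 without EpiSC replicate 2.

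The 1 rise was small. Hist1h2ao was at 2.16, 2.21 and 2.07 FPKM in EpiSCs, against 1.67, 1.52 and 1.41 FPKM in ESCs (log2 0.31, limma adjusted p = 0.0486), and the call was lost when any 1 EpiSC or ESC library was left out. EpiSC replicate 1 was the lowest of the 3 EpiSC libraries for 41 of the 61 members detected there. H1f2 shows it, with 1.35, 6.12 and 7.03 FPKM in EpiSCs, against 7.08, 7.51 and 7.62 FPKM in ESCs, a difference that was not called (log2 -0.71, adjusted p = 0.108) but was called without EpiSC replicate 3 (log2 -1.04, adjusted p = 0.0265). H2ac10 went the other way in that library, with 13.9, 2.29 and 3.23 FPKM in EpiSCs (log2 0.26, adjusted p = 0.736), and its sign turned to -0.40 without it. Without EpiSC replicate 1, 3 members were higher.

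For the related lists in EpiSCs, the shares over all genes to read beside the counts are the 33.3% higher and 26.5% lower given above. Of the structured RNAs 3 of 7 were higher and 0 lower. Of the locus body and 3′ end genes 5 rose and 8 fell, Slbp by 0.62 (limma adjusted p = 0.00293), while Lsm11, a U7 snRNP protein, rose (log2 0.66). Of the chaperones 2 of 18 rose and 13 fell (Asf1b, an H3-H4 chaperone of S phase, by 1.33), and of the S phase genes 1 of 27 rose and 19 fell (Mcm5, of the replicative helicase, by 0.99). Replacement histones were split near the background, 4 higher and 4 lower of 12, with rises of H1f0 (log2 0.69) and H3f3b (log2 0.43).

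In MEFs some members were higher than in ESCs and others lower, and the long members were mostly higher. Without the filter, MEF libraries lay wholly above ESC libraries for 32 of 65 members (35% of all genes) and wholly below for 16 (40.4%). Called by limma, 28 of 60 were higher (34.5%), 14 lower (40.9%) and 18 not called, and without the filter 29 of 65 were higher (31.2%) and 14 lower (35%). Rises and falls were 10 and 2 for H2B, 8 and 1 for H4, 5 and 3 for H3, 4 and 7 for H2A (4 and 3 with median-of-ratios scaling), and 1 and 1 for H1. The lower count was 9 without ESC replicate 1.

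Long members rose in MEFs in 13 of 14 cases and fell in 0, with a median log2 fold change of 1.18, against -0.07 over all genes. The 45 short members rose in 15 and fell in 14 cases, with a median of -0.01. Over all genes 34.5% rose and 40.9% fell. With quantile normalization 11 long members rose, and with median-of-ratios scaling 13 did, and leaving out single MEF or ESC libraries gave 12 or 13. Without the filter 14 of 16 long members rose (31.2% of all genes). The long member that was not called was H4c4 (log2 0.19, adjusted p = 0.295). Long members held 48.5% of the summed FPKM in MEFs, 11.2% in 2CLCs, 24.2% in EpiSCs and 29% in ESCs. In MEFs and ESCs much of that share came from H2bc4 and H1f2. They averaged 40.5 and 22.2 of the 92.3 FPKM of long members in MEFs, and 10.5 and 7.41 of 23 FPKM in ESCs. The difference between the forms was not itself tested.

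H3c15, on chromosome 3, rose most on the log2(FPKM + 1) scale, with 7.58, 5.7 and 8.09 FPKM in MEFs, against 0.623, 0.0706 and 0.293 FPKM in ESCs (log2 2.62, SE 0.17, limma adjusted p = 6.11e-08). H2bc4 (chr13:23684199-23692908, plus strand) reached the highest level of any member in MEFs, with 42.4, 40.4 and 38.7 FPKM, against 10.1, 11.2 and 10.2 FPKM in ESCs (log2 1.85, adjusted p = 1.71e-05). Both are long members. H1f2, also long, was at 22.1, 20 and 24.4 FPKM in MEFs, against 7.08, 7.51 and 7.62 FPKM in ESCs (log2 1.46, adjusted p = 0.00291). H2ac6, the partner of H2bc4, rose to 0.899, 1.51 and 1.33 FPKM in MEFs, against 0, 0.058 and 0.0569 FPKM in ESCs (log2 1.10), and H2bc6 rose by a log2 value of 1.26. In that pair the H2B gene dominated, with 40.5 FPKM for H2bc4 and 1.25 FPKM for H2ac6 in MEFs.

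Several short members rose in MEFs as well. H2bc8 was at 11.3, 12 and 8.92 FPKM in MEFs, against 0.681, 0.857 and 1.92 FPKM in ESCs (log2 2.48, limma adjusted p = 1.65e-07). H4c8, whose annotated transcript ends 46 bases past its stem-loop, was at 7.91, 6.56 and 7.74 FPKM in MEFs, against 0.785, 0.341 and 1.08 FPKM in ESCs (log2 2.30, adjusted p = 1.76e-07). None of these libraries overlapped between MEFs and ESCs. Hist1h4n was at 8.99, 7.91 and 9.69 FPKM in MEFs, against 1.81, 1.36 and 0.484 FPKM in ESCs (log2 2.20), and H2ac4 at 4.79, 6.41 and 4.66 FPKM in MEFs, against 1.54, 1.31 and 0.79 FPKM in ESCs (log2 1.51). Hist1h2al (log2 2.01), Hist1h4m (1.96), H4c9 (0.98) and H2bc12 (0.90) rose too, as did the long Hist1h2bq (1.85).

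Other members fell in MEFs, among them some of the highest in ESCs. H3c8 was at 1.34, 1.33 and 1.09 FPKM in MEFs, against 4.38, 2.85 and 4.2 FPKM in ESCs (log2 -1.08), and H1f1 fell by 0.62. H2ac10 was at 1.05, 0.704 and 1 FPKM in MEFs, against 3.83, 4.52 and 3.49 FPKM in ESCs (log2 -1.36, limma adjusted p = 0.0422), a call lost when any 1 MEF or ESC library was left out. H2ac12 fell by 0.34 (adjusted p = 0.0146), which was lost without ESC replicate 2, MEF replicate 2 or MEF replicate 3. With 4 rises and 7 falls the H2A class summed to 26.9 FPKM in MEFs and 20.5 FPKM in ESCs.

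The machinery around histone genes was lower in MEFs, where 34.5% of all genes rose and 40.9% fell. Of the S phase genes 0 of 27 rose and 26 fell, as deposited and under both other scalings, with Mcm5 at 15.6 FPKM in MEFs and 255 FPKM in ESCs (log2 -3.95) and Pcna down by 2.28. Of the chaperones 0 of 18 rose and 17 fell, with Nasp at 22 FPKM in MEFs and 339 FPKM in ESCs (log2 -3.89) and Hat1, the acetyltransferase of new H4, down by 3.08. Slbp was at 21, 22 and 20.2 FPKM in MEFs, against 94.3, 95.2 and 91.8 FPKM in ESCs, and fell (log2 -2.10). Of the 20 locus body and 3′ end genes 16 fell, Npat by 0.86, and 2 rose, the U7 protein genes Lsm10 (log2 0.43) and Lsm11 (log2 0.27), the second of which was not called with quantile normalization (log2 0.03, limma adjusted p = 0.773). Of the replacement histones H1f0, the linker variant of resting cells, rose (log2 1.25), while 9 of 12 fell, among them H1f10 by 1.44 and H3f3b by 0.95. Of the structured RNAs 2 rose and 2 fell of 7. All comparisons of cell states share the ESC libraries.

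Sodium lactate changed the histone genes of ESCs little in sum. The members summed to 76.2, 78 and 80.6 FPKM at 0 mM, to 127, 87.2 and 85.7 FPKM at 60 mM, and to 102, 103 and 93.4 FPKM at 80 mM. All treated libraries lay above the untreated ones, by a ratio of means of 1.28 at 60 mM and 1.27 at 80 mM over 0 mM. Replicate 1 of 60 mM stood apart, being the highest of its group for 52 of 64 detected members, and it also held 321 FPKM of structured RNAs, where the other 8 libraries held 16.6 to 30 FPKM. In it Rn7s1 was at 139 FPKM. The part of this library's structured RNA in its histone values was not tested.

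At 60 mM, 7 of 34 tested members rose (23.6% of all genes) and 0 fell (18.7%), a share close to the background. By limma the count at an unadjusted p under 0.05 was 9 higher and 0 lower. Without a filter 5 of 64 rose (8.75%) and 0 fell (6.59%), and libraries lay wholly above 0 mM for 13 of 64 (16.9%) and wholly below for 0 (11.9%). The count of rises was 3 with quantile normalization and 3 without 60 mM replicate 1, 60 mM replicate 2 or 0 mM replicate 1, and 1 member was lower without 60 mM replicate 1 or replicate 3. At 80 mM, 8 rose (30%) and 1 fell (23.1%), or 8 (14.1%) and 0 (8.77%) of 64 without a filter, with libraries wholly above 0 mM for 15 of 64 (20.9%) and wholly below for 3 (13%). The rises at 80 mM were again near the background share. Both doses are compared with the same untreated libraries.

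H3c15 had the largest called rise on the log2(FPKM + 1) scale at both doses, with 0.915, 0.964 and 0.963 FPKM at 0 mM, 2.67, 2.59 and 1.74 FPKM at 60 mM, and 2.84, 2.46 and 2.79 FPKM at 80 mM. Its log2 fold change was 0.76 at 60 mM (limma adjusted p = 0.000544) and 0.92 at 80 mM (adjusted p = 9.33e-05), and no treated library overlapped with 0 mM. H2bc8 was at 1.62, 1.65 and 1.96 FPKM at 0 mM, 2.89, 2.95 and 2.21 FPKM at 60 mM, and 3.68, 3.21 and 4.41 FPKM at 80 mM (log2 0.42 at 60 mM and 0.79 at 80 mM over 0 mM). H4c9 was at 6.35, 5.25 and 6.2 FPKM at 0 mM, 8.87, 8.41 and 7.19 FPKM at 60 mM, and 11.3, 13 and 8.55 FPKM at 80 mM (log2 0.40 and 0.77). For both genes the 3 doses were ordered in their means.

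H2bc4 was at 6.87, 7.42 and 6.89 FPKM at 0 mM, 10, 9.39 and 7.68 FPKM at 60 mM, and 11.1, 9.99 and 9.65 FPKM at 80 mM (log2 0.31 and 0.48). H3c8 was at 2.6, 2.13 and 2.18 FPKM at 0 mM, 4.81, 3.19 and 3.21 FPKM at 60 mM, and 3.74, 3.31 and 3.93 FPKM at 80 mM (log2 0.51 and 0.50). Both sets of treated libraries lay above 0 mM. H1f1 was at 0.188, 0.315 and 0.589 FPKM at 0 mM, 2.06, 0.629 and 0.799 FPKM at 60 mM, and 1.28, 1.06 and 1.33 FPKM at 80 mM (log2 0.62 and 0.71), and its ratio of mean FPKM to 0 mM, 3.19 at 60 mM and 3.36 at 80 mM, was above that of H3c15 (2.46 and 2.85). H3c11 averaged 0.558 FPKM at 0 mM, 1.4 FPKM at 60 mM and 0.8 FPKM at 80 mM, and was called at 60 mM (log2 0.63) and not at 80 mM. At 60 mM the calls of H3c15 and H3c8 held whichever library was left out, and those of the other 5 did not. The call of H4c9 was lost without 0 mM replicate 2 or 3 or 60 mM replicate 1 or 2. That of H2bc4 was lost without 0 mM replicate 1 or 3 or 60 mM replicate 1 or 2, and that of H2bc8 without replicate 1 of 0 mM or replicate 1 or 2 of 60 mM. H1f1 was lost without 0 mM replicate 1 or 2 or 60 mM replicate 1, and H3c11 without 0 mM replicate 1 or 3 or 60 mM replicate 2 or 3. At 80 mM H1f1 was lost without 0 mM replicate 1 or 80 mM replicate 3.

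H1f2, the highest member in this table, was at 11.7, 12.8 and 10.7 FPKM at 0 mM, 12.4, 12.9 and 13.1 FPKM at 60 mM, and 14.2, 15.4 and 13.3 FPKM at 80 mM. It was called at 80 mM (log2 0.26, limma adjusted p = 0.0091) and not at 60 mM (log2 0.12, adjusted p = 0.197). H4c11 was called at 80 mM (log2 0.38) but not without 0 mM replicate 1 or 2 or 80 mM replicate 2 or 3. The 1 fall was H2ac10, with 1.6, 2.02 and 2.09 FPKM at 0 mM, 2.28, 0.874 and 0.399 FPKM at 60 mM, and 0.937, 0.443 and 0.809 FPKM at 80 mM (log2 -0.75 at 80 mM, adjusted p = 0.0327). That call was lost, leaving 0 falls, without 0 mM replicate 2, 0 mM replicate 3, 80 mM replicate 2 or 80 mM replicate 3, and 3 members fell without 0 mM replicate 1.

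**Figure D5:**
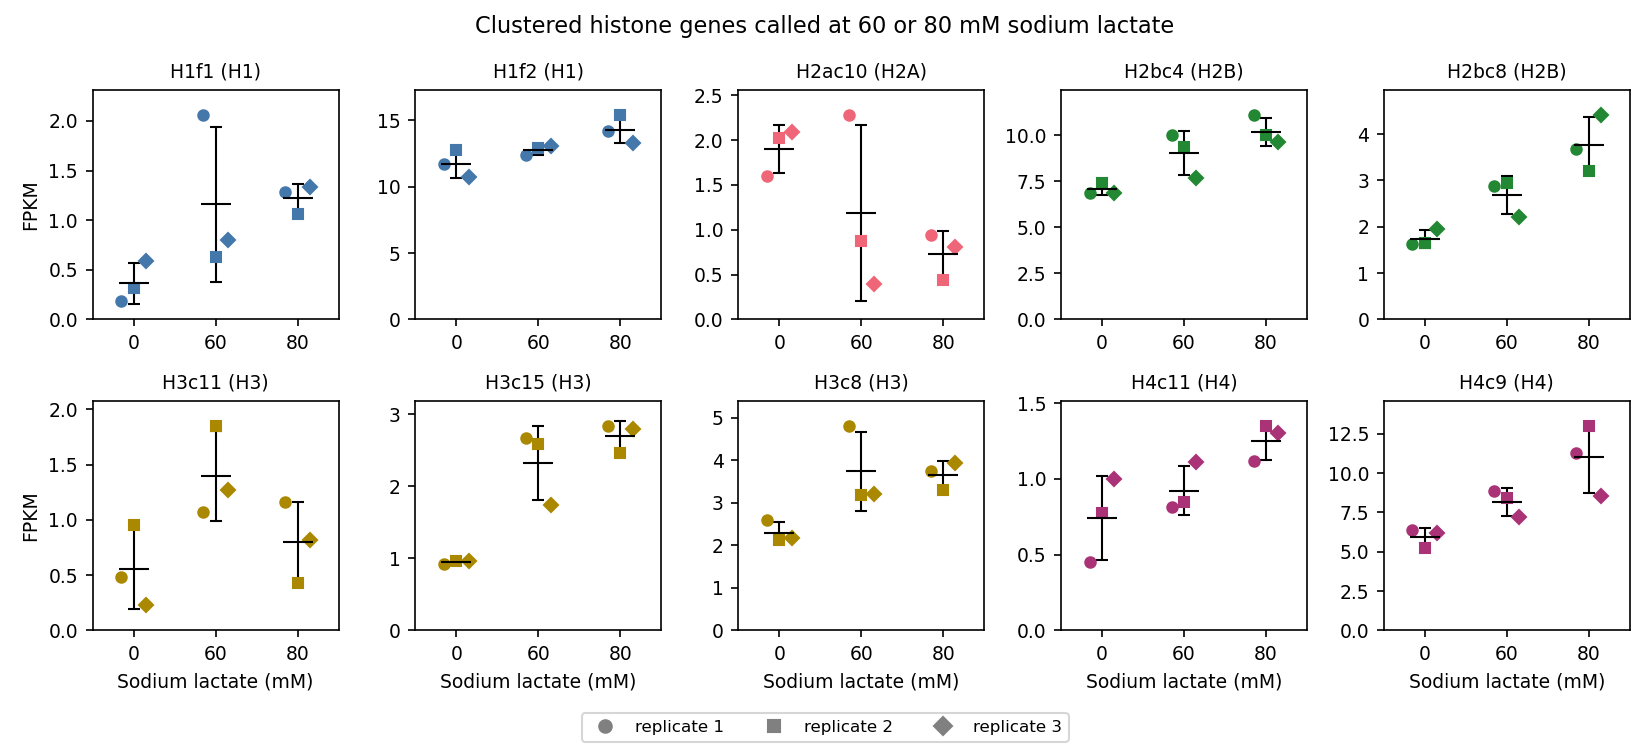
FPKM of the 10 histone genes called at 60 or 80 mM sodium lactate against 0 mM, by dose; symbols are the 3 replicates and bars are the mean with SD (n = 3). H3c15, H2bc8, H4c9 and H2bc4 have all treated libraries above 0 mM, and H2ac10 is lowest at 80 mM, with a mean of 0.73 FPKM against 1.9 FPKM at 0 mM.

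Between 80 mM and 60 mM, limma called 0 of 34 members higher (4.09% of all genes) and 0 lower (2.1%). At an unadjusted p under 0.05 there were 3 higher and 3 lower. Libraries at 80 mM lay wholly above those at 60 mM for 5 of 64 members (10.3%) and wholly below for 7 (6.02%). The differences of H2bc8 (log2 0.37, adjusted p = 0.0935), H4c9 (log2 0.37, adjusted p = 0.132) and Hist1h2al (log2 0.71, adjusted p = 0.0598) over 60 mM were not called, though H4c9 was called without 80 mM replicate 3 (adjusted p = 0.0311). The 2CLC marker Zscan4c averaged 16 FPKM at 0 mM, 34 FPKM at 60 mM and 51.9 FPKM at 80 mM, and 5 of 5 tested 2CLC markers rose at both doses. Markers of other cell types moved in the same libraries: 2 of 3 tested EpiSC markers rose at both doses (Otx2, log2 1.34 at 60 mM and 1.54 at 80 mM, and Dnmt3b, 0.45 and 0.53), as did Thy1, the 1 MEF marker tested (1.39 and 1.77). The ESC markers had 3 higher and 3 lower at each dose. The structured RNAs had 0 of 5 called at either dose.

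The shares over all genes, to read beside the related lists, were 23.6% higher and 18.7% lower at 60 mM and 30% and 23.1% at 80 mM. Of the S phase genes 1 of 27 rose and 15 fell at 60 mM, and 1 rose and 20 fell at 80 mM. Pcna, the sliding clamp of DNA synthesis, fell by 0.36 at 60 mM and by 0.51 at 80 mM, and Pola1, of DNA polymerase alpha, fell by 0.60 and by 0.88. Of the locus body and 3′ end genes 1 rose at each dose, and 5 and 6 of 20 fell (6 and 11 with median-of-ratios scaling). Slbp was not called (log2 -0.12 and -0.09), but was called lower at both doses with median-of-ratios scaling (limma adjusted p = 0.0196 and 0.0178), at 60 mM without 60 mM replicate 2 and at 80 mM without 80 mM replicate 1. Npat was not called either (log2 -0.04 and -0.11), but was called lower at 80 mM with median-of-ratios scaling (adjusted p = 0.011) and quantile normalization (adjusted p = 0.02). Of the chaperones 3 rose at each dose while 5 and 6 of 18 fell (1 rose at each dose with median-of-ratios scaling and 5 with quantile normalization), and of the replacement histones 3 rose and 4 fell of 12 at each dose. H1f0 averaged 34.8 FPKM at 0 mM, 20 FPKM at 60 mM and 18.1 FPKM at 80 mM.

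Genes outside the family whose pattern was most like that of the leading member of each class were found by Pearson's r of log2(FPKM + 1), given as a description over libraries that share their groups. Over the 12 cell-state libraries they were Il6ra and Atp6v1e1 for H4c9 (both r = 0.9960), Gm47761 for H3c8 (0.9942) and Gm27167 for H2ac12 (0.9988). For H2bc4 it was Adgre5 (0.9815) and for H1f2 Tpt1 (0.9836). Over the 9 lactate libraries they were Zfp286 for H4c9 (0.9836), Hnrnph3 for H3c8 (0.9767), Mrpl17 for H2ac12 (0.9532), Rnf24 for H2bc4 (0.9839) and Kctd10 for H1f2 (0.9761). No gene was the nearest to the same member in both tables.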

How the data were processed

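RNA was extracted with Trizol and sequenced on a MiSeq, per the labels' protocols. The deposited tables give FPKM per gene, normalized separately in each; the submitters' processing notes name HISAT2 2.0.4, StringTie 2.1.4 and mm10, without roles; which annotation was used is not stated there. No column of values was left unused. Names listed more than once (35 and 112) were left out of tests. limma 3.58.1 in R 4.3.3 was fitted with trend to log2(FPKM + 1) of all 12 or 9 libraries of a table, for genes at 1 FPKM or more in at least 3 libraries, two-sided, with Benjamini-Hochberg adjustment over all genes tested and a threshold of 0.05. A fold change on this scale understates that of low genes. Tests were tried on simulated data. Sums, stem-loops and motifs were computed in Python 3.11.15 (numpy 2.4.6, pandas 2.3.3, matplotlib 3.10.9). A change that misses the threshold is not shown to be absent. The labels do not say whether the libraries of a group are separate cultures; p-values cover the variation among them, which may be technical. Named members were, in each class, the 3 highest in each table, per comparison the 6 largest called rises and falls at 5 FPKM or more, germline and H1 members, and others chosen after their values were seen. Members and lists were chosen with earlier results of these data known. Alternatives were other pseudocounts, filters, scalings and fits, a minimum change, and leaving out libraries.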

Additional observations from a re-analysis of the deposited data

How the results depend on the processing

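In 2CLCs the counts of members higher and lower kept within 1.5 times of 60 and 0 under every alternative run. Median-of-ratios scaling gave opposite signs in 2CLCs for Slbp (0.48), H3f3a (0.56), H3f3b (0.30), H2az1 (0.41), Nasp (0.12), Pcna (0.52) and Mcm5 (0.22), and H2ac10 in EpiSCs was -0.40 without EpiSC replicate 1 and at most 0.69 with another library left out; the cause was not tested. Members higher in EpiSCs were 0 with pseudocounts of 0.1 and 5, no filter, either scaling or a minimum log2 change of 1, and 0 to 3 with single libraries left out. Members lower in EpiSCs were 26 with quantile normalization and 3 with the minimum change. In MEFs 15 were higher with the minimum change, and 9 were lower with a pseudocount of 5, 2 with the minimum change and 9 to 15 with libraries left out. At 60 mM 2 rose with a filter of 5 FPKM, 3 with quantile normalization, 0 with the minimum change and 3 to 9 with libraries left out, and 1 fell with quantile normalization and 0 to 1 with libraries left out. At 80 mM 3 rose with the filter of 5 FPKM and 0 with the minimum change; 0 fell without a filter, with the filter of 5 FPKM or with the minimum change, 3 with quantile normalization and 0 to 3 with libraries left out. Between 80 mM and 60 mM 1 was higher with a pseudocount of 5, with only these groups fitted or with the replicate block, 0 to 1 with libraries left out, and 1 was lower without a filter. The summed FPKM without the highest member was 1810 in 2CLCs, 176 in MEFs, 72.5 in ESCs, 66.5 at 0 mM and 85.3 at 80 mM, and with median-of-ratios scaling 3069 in 2CLCs, 39.5 in EpiSCs and 68.3 in ESCs. Same-numbered libraries did not deviate together (r from -0.038 to 0.078), so no pairing by number was seen, though these values cannot show that it is absent. With a replicate block the counts higher and lower were 60 and 0 in 2CLCs, 1 and 14 in EpiSCs, 27 and 14 in MEFs, 6 and 0 at 60 mM, and 10 and 1 at 80 mM. Summing repeated names and leaving out EpiSC replicate 1 or 60 mM replicate 1 from other comparisons were chosen after seeing the data and kept the counts within 1.5 times. For named genes, 1440 values kept their direction and call, 70 lost the call, 13 gained it and 8 turned sign. Without read counts the precision of low members is unknown.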
